A study of Mus musculus with 3 samples.

Results

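The genes described here are the integrins and laminins of C2C12 myotubes, the multinucleate cells that the mouse myoblast line C2C12 forms when it differentiates. They were chosen by symbol alone, as the rows of the deposited gene table whose single symbol names an integrin alpha or beta subunit with a number (or Itgav) or a laminin alpha, beta or gamma chain. The 31 genes reported (21 integrins and 10 laminins) of 24401 loci have 1 locus each. Of these, 22 had a mean of 1 FPKM or more over the 3 libraries (14 integrins and 8 laminins), and ratios are given for those. FPKM is a fragment count divided by transcript length and by library size, so levels of different genes can be set side by side.

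Integrins are cell surface receptors made of 1 alpha and 1 beta subunit, which join the extracellular matrix to the actin cytoskeleton through talin, vinculin and kindlin. Laminins are secreted trimers of 1 alpha, 1 beta and 1 gamma chain, and they form the sheet-like core of basement membranes. In muscle fibres the laminins with the chain encoded by Lama2 bind the receptor built from Itga7 and Itgb1 and also bind dystroglycan, and loss of Lama2 or of Itga7 causes muscular dystrophy.

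All 3 libraries came from C2C12 cells that were grown to confluency and differentiated for 72 hours with 2% horse serum and 1 µg/ml insulin, then kept for 24 hours in 1 of 3 media. These were DMEM (control), medium conditioned for 24 hours by S2-013, a human pancreatic cancer line (conditioned media), or that kind of medium with 50 µM resveratrol, a plant polyphenol (resveratrol library). Fetal bovine serum at 10% is also listed for all 3 libraries. The study compared these media, and none of the 3 libraries had resveratrol without conditioned media. Each condition held 1 library, so no difference below has a replicate check and no error or p-value of its own. Calls, p and q are those of the authors' deposited table (Cuffdiff), and describe 2 libraries rather than 2 conditions. The number of reads per library is unknown, so counting error could not be given. Ratios are log2 of (FPKM + 1) over (FPKM + 1), and the added 1 shrinks the ratios of low genes. Where 3 FPKM values follow a gene, the first is from the control library, the second from conditioned media and the last from the resveratrol library.

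The libraries carry the markers of myotubes. All 14 measured myotube markers passed 1 FPKM, and they summed to 6956, 6117 and 8913 FPKM. The labels call the cell type myoblast, and the 9 myoblast and reserve cell markers summed to 109, 113 and 81.8 FPKM. Markers of endothelial cells (8 genes, each under 0.458 FPKM or at it, with Tie1 and Emcn at 0), leukocytes (8 genes, at most 1.82 FPKM, with Ptprc, Adgre1, Cd3e and Tyrobp at 0) and epithelial cells (7 genes, at most 2.74 FPKM, with Krt18 at 0) were at or near 0. The 8 Schwann and neural markers, of which 2 reached a mean of 1 FPKM, summed to 128, 139 and 133 FPKM, with Rbfox3 at 0. In bulk RNA, fewer cells of a type and less RNA per cell cannot be told apart.

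Among beta subunits, Itgb1, the common partner of most alpha subunits in muscle, stood far above the rest. It was at 346, 286 and 288 FPKM, which placed its mean at percentile 97.6 of the 11858 loci with a mean of 1 FPKM or more. It held 79.4%, 76.0% and 75.7% of the summed FPKM of the 8 beta subunits. Itgb1 (chromosome 8, positions 128685439 to 128733579 of mm10) was alone in its span. Itgb5, a partner of Itgav in vitronectin receptors, came next at 70.7, 67.9 and 72.7 FPKM. Itgb3, which pairs with Itgav or Itga2b, followed at 12.2, 15.2 and 14.6 FPKM. The last 2 partners of Itgav, both able to activate latent TGF-beta, were low, with Itgb8 above Itgb6 in conditioned media and below it in both other libraries. Itgb6 stood at 3.56, 2.26 and 3.91 FPKM. Itgb8 stood at 2.58, 3.39 and 0.874 FPKM.

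Among alpha subunits, Itga7 had the highest level in every library. This laminin receptor of differentiated muscle was at 148, 167 and 144 FPKM (chromosome 10, 128919914 to 128960988), and held 46.4%, 50.9% and 54.4% of the summed alpha subunit FPKM. Its span is shared with Bloc1s1 and Mettl7b and holds an annotated small nuclear RNA gene on the same strand, so part of its value may come from these. Itga5, the fibronectin receptor subunit, was second at 82.9, 73.2 and 52.5 FPKM, and its share went from 26.0% and 22.4% to 19.8%. Itgav, which binds RGD ligands such as vitronectin and fibronectin, came next at 38.9, 42.5 and 31.2 FPKM. The other 2 laminin-binding subunits were well below Itga7. Itga6 was at 17.5, 15.2 and 16.4 FPKM, in a span given to 8 other loci. Itga3 was at 12.5, 7.27 and 7.10 FPKM, with control above both conditioned media libraries.

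Collagen receptors were represented mainly by Itga11, which binds fibrillar collagen, at 13.4, 15.7 and 11.2 FPKM. Itga10, also a collagen receptor and best known from cartilage, stood at 2.17, 1.47 and 0.321 FPKM, lowest in the resveratrol library. Itga4, a receptor for Vcam1 and fibronectin, was at 1.87, 2.02 and 0.610 FPKM, and it too was lowest there. Itga2b, the platelet fibrinogen receptor subunit, was at 1.06, 2.56 and 1.36 FPKM, highest in conditioned media. The authors' deposited table did not test Itga10 or Itga4 in any comparison. In the annotation Itga10 overlaps the protein-coding gene Gm42957 on the same strand, so part of its value may come from that gene.

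Of the laminin chains reported, Lamb1 and Lamc1 had the highest levels. Lamc1, the gamma chain of most laminins, was at 39.1, 45.2 and 48.3 FPKM. Lamb1 stood at 49.1, 49.9 and 54.7 FPKM. Lamb2, the beta chain known from the neuromuscular junction, stood at 20.1, 19.4 and 19.5 FPKM, and it was not called in any comparison of the authors' deposited table. Among alpha chains Lama5, widespread in basement membranes, was highest at 18.5, 19.9 and 16.4 FPKM. Lama2, the alpha chain of mature muscle fibres, stood at 7.36, 9.55 and 10.9 FPKM. Lama4 (chromosome 10, 38965515 to 39110253), an alpha chain of vessels and of muscle and nerve basement membranes, stood at 5.48, 11.8 and 6.89 FPKM, with conditioned media above both other libraries. Lama1, an early embryonic alpha chain, was at 3.11, 4.01 and 2.26 FPKM.

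Lamb3 and Lama3, a beta and an alpha chain best known from epithelia, were present unequally. Lamb3 (chromosome 1, 193301990 to 193370282, a span shared with Camk1g) stood at 7.66, 5.60 and 2.33 FPKM. It was highest in control and lowest in the resveratrol library. In the annotation Lamb3 also overlaps the protein-coding genes Hsd11b1 and G0s2 on the opposite strand and 4930570N18Rik on the same strand. Part of its value may come from these. Lama3 was at or below 0.0271 FPKM in every library. As a share of beta chain FPKM, Lamb3 went from 9.97% to 7.47% and 3.04%, while Lamb1 went from 63.9% to 66.6% and 71.5%. Shares within a library do not change with the scaling of that library.

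**Figure D1:**
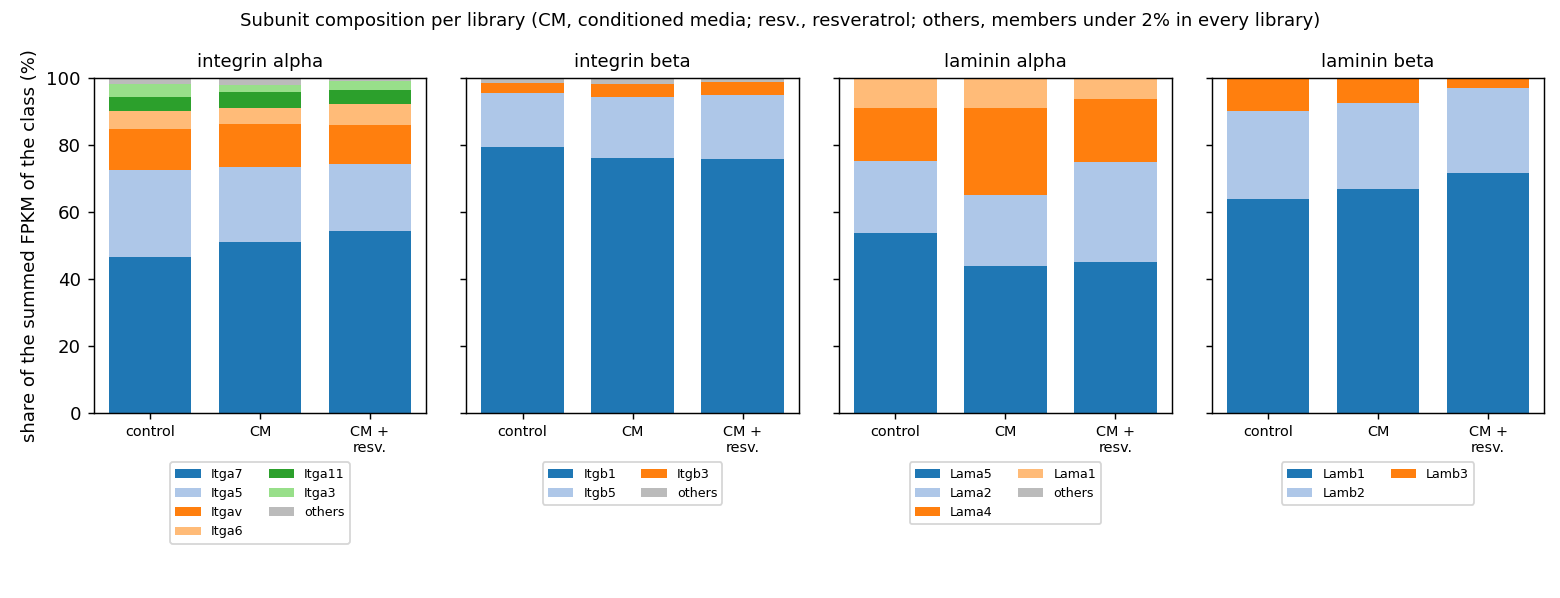
Share (%) of each subunit in the summed FPKM of its class, as stacked bars for the 3 libraries (CM is conditioned media), with members under 2% in every library pooled as others. Lama4 takes its largest share of the alpha chains in conditioned media (26.1%, against 15.9% in control and 18.9% with resveratrol), and the share of Lamb3 is smallest in the resveratrol library.

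The remaining 9 members had a mean below 1 FPKM (Itga1, Itga2, Itga8, Itga9, Itgb2, Itgb4, Itgb7, Lama3 and Lamc3), with values from 0.00486 to 0.770 FPKM, and the authors' deposited table tested none of them. The member just above this limit was Itga10 with a mean of 1.32 FPKM, and the one just below was Lamc3 with 0.604 FPKM. Lamc3, a gamma chain of nerve and retina, was at 0.677, 0.366 and 0.770 FPKM. Itga1, a collagen receptor subunit whose span is shared with Pelo, was at 0.589, 0.763 and 0.253 FPKM. Itgb4, the partner of Itga6 in hemidesmosomes, was at 0.409, 0.646 and 0.198 FPKM. The leukocyte subunits Itgb2 and Itgb7 did not exceed 0.384 FPKM.

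The first comparison asks how integrins and laminins differed between myotubes in conditioned media and in control medium. The differences were small. A member passed the size rule at an absolute log2 ratio of at least 1. None did, with 0 of 22 members higher and 0 lower, where 1.98% of all loci were higher and 0.751% lower. The median log2 ratio was 0.085, against -0.011 over all loci, with 13 members above 0 and 9 below, where 48.7% and 51.3% of loci were. At an absolute ratio of 0.5 or more, 2 were higher and 1 lower, where 9.74% and 7.49% of loci were. Of 20 members tested in the authors' deposited table, 10 were called higher and 6 lower, where 25.8% and 29.9% of tested loci were.

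Lama4 had the largest ratio, 0.98 (q = 0.000148 in the authors' deposited table), just short of the size rule. The other alpha chains were also above 0, with Lama2 at 0.34, Lama1 at 0.29 and Lama5 at 0.097. Lama2 was not called in the authors' deposited table (q = 0.0719). All 4 alpha chain genes were thus higher in conditioned media, in each of the 3 scalings tried, while the beta chains were divided. Lamc1 had a log2 ratio of 0.20 and Lamb3 one of -0.39. Lamb1 at 0.024 and Lamb2 at -0.045 were not called, and the sign of each turned under 1 scaling.

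Of the integrins, Itga2b had a log2 ratio of 0.79 at a low level, and Itga3 one of -0.71. The 3 laminin-binding alpha subunits did not move together. Itga7 was at 0.17 and Itga6 at -0.19, both called in the authors' deposited table (q = 0.000148 and 0.0231). Itgb1 had a log2 ratio of -0.28, Itgb6 one of -0.49, and Itgb3 and Itgb8 both one of 0.29. Itga5, Itgav and Itga11 had ratios of -0.18, 0.12 and 0.22, and that of Itga5 turned sign after rescaling to TPM, as did that of Itgb5 (-0.057). Fibroblast markers summed to 236 FPKM in control and 269 FPKM in conditioned media. Of the 4 with a mean of 1 FPKM or more, 3 were above 0 (median 0.51), where 48.7% of all loci were. The 3 were Pdgfra at 0.86, Dcn at 0.79 and Col6a3 at 0.23. Pdgfrb went the other way at -0.47 (63.4 FPKM in control and 45.5 FPKM in conditioned media). Smooth muscle markers, 6 genes of which 5 reached a mean of 1 FPKM, summed to 1242 FPKM in control and 649 FPKM in conditioned media (796 FPKM with resveratrol), and the part of either list in the laminin and integrin ratios was not tested.

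**Figure D2:**
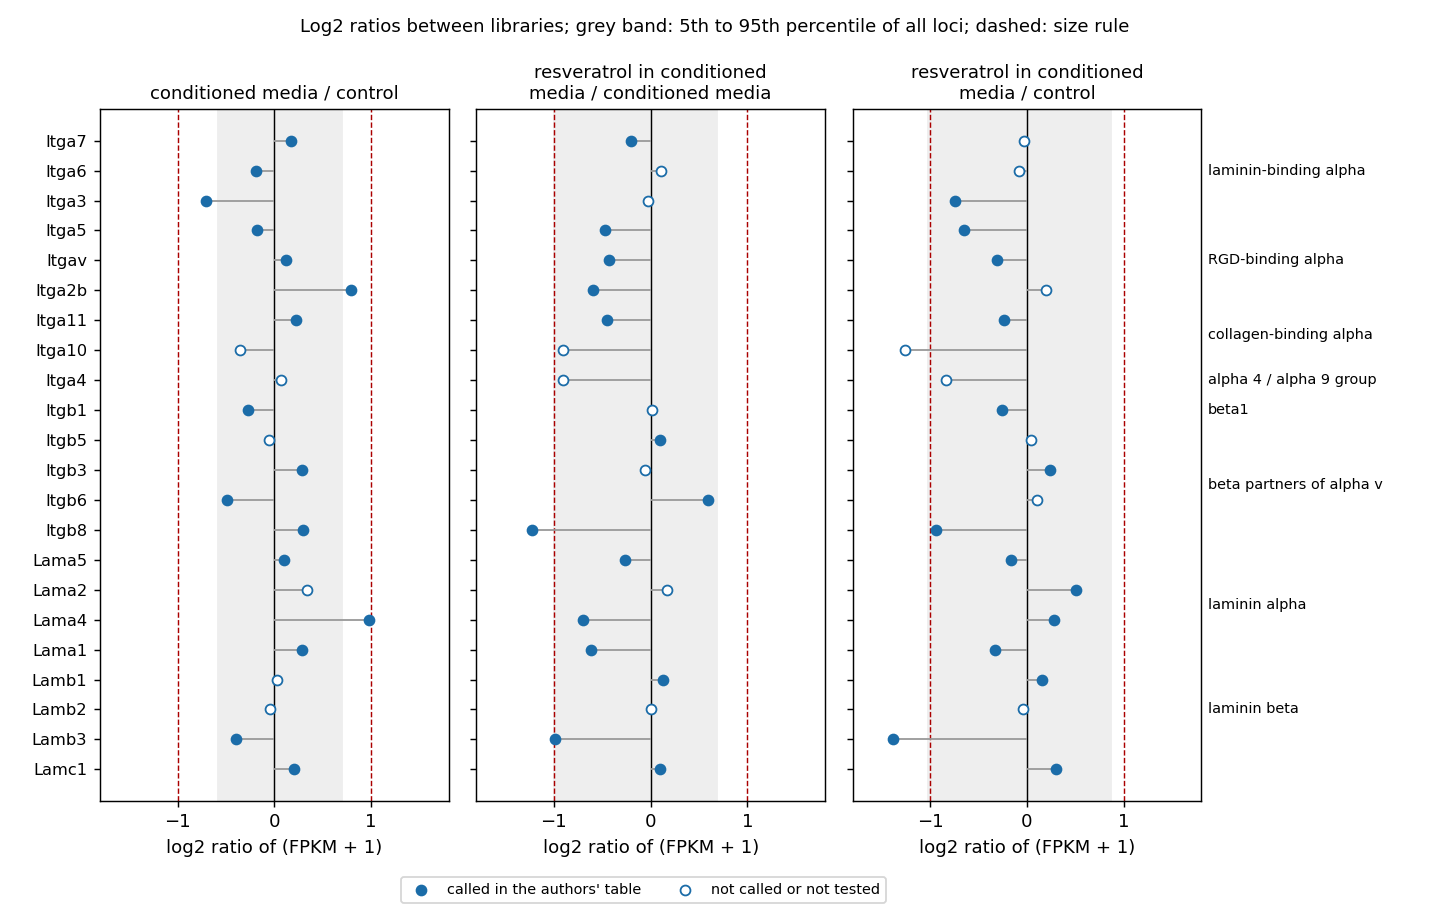
Log2 ratios of FPKM + 1 for the 22 members in the 3 comparisons, which share libraries, by role. Lamc1, in the bottom row, has no role label. Filled points are called in the authors' deposited table, the grey band runs from the 5th to the 95th percentile of all loci, and the dashed lines mark the size rule, which 0, 1 and 2 members pass, all of them lower.

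The second comparison asks what resveratrol in conditioned media changed. Of the 22 members, 14 were below 0, and the size of the median depended on which members were taken. It was -0.043 for members with a mean of 5 FPKM or more (9 of 16 below 0) and -0.056 for those alone in their span (9 of 15 below 0). By the size rule 0 of 22 were higher and 1 lower (4.55%), where 1.53% of loci were higher and 4.97% lower, so the members' share was near that of all loci. The median log2 ratio of all 22 was -0.24, against 0.025 over all loci, with 8 above 0 and 14 below, where 52.5% and 47.4% of loci were. At an absolute ratio of 0.5 or more, 7 of 22 were lower (31.8%) and 1 higher, where 15.5% and 10.8% of loci were. Of 20 members tested in the authors' deposited table, 10 were called lower and 4 higher, where 29.5% and 34.1% of tested loci were.

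The member past the size rule was Itgb8 (chromosome 12, 119158232 to 119238814), with a log2 ratio of -1.23 (q = 0.000148 in the authors' deposited table). Lamb3 followed at -0.99, and passed the size rule at a pseudocount of 0.1 (-1.23). Itga4 and Itga10, the low members that the authors did not test, had ratios of -0.91 and -0.90. Itgb8 no longer passed the size rule after rescaling to TPM (-0.73) or at a pseudocount of 5 (-0.52), which both weigh low genes down.

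The alpha chains divided with resveratrol. Lama4 was lower at -0.70, Lama1 at -0.62 and Lama5 at -0.27, while Lama2 had a ratio of 0.17 that was not called in the authors' deposited table (q = 0.449). Lama4 had been the member with the largest ratio in the first comparison, and both ratios contain the same conditioned media library. The beta and gamma chains of muscle laminin differed little, with Lamb1 at 0.13, Lamb2 at 0.0059 and Lamc1 at 0.093.

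All 3 RGD-binding alpha subunits with a mean of 1 FPKM or more were below 0 with resveratrol, where 47.4% of all loci were. So were both collagen-binding ones and Itga4. Of these, Itga10 and Itga4 were at 0.321 and 0.610 FPKM with resveratrol and passed the limit on the mean through the other libraries. Itga2b had a log2 ratio of -0.60, Itga5 one of -0.47, Itga11 one of -0.46 and Itgav one of -0.43. The laminin-binding subunits were closer to 0, with Itga7 at -0.21, Itga6 at 0.10 and Itga3 at -0.029. Among beta subunits Itgb6 was the highest at 0.59, whereas Itgb5 at 0.097, Itgb3 at -0.056 and Itgb1 at 0.014 were near 0. The sign of Itgb1 and of Lamb2 turned when ratios were centred on the median of all loci.

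Markers of other cell states moved in the same comparison. Of the 5 myoblast and reserve cell markers with a mean of 1 FPKM or more, 0 were above 0. Of the 5, 3 were lower by the size rule, where 4.97% of all loci were. Only 1 was lower by that rule after rescaling to TPM, with 0 still above 0. The summed level of all 9 markers was 113 FPKM in conditioned media and 81.8 FPKM with resveratrol, with Chrdl2 and Calcr at 0. Myotube markers summed to 6117 and 8913 FPKM, and 11 of 14 were above 0, where 52.5% of all loci were. Fibroblast markers summed to 269 and 173 FPKM over 7 genes, with Tcf21 at 0. Of these, 4 of the 4 with a mean of 1 FPKM or more were below 0 (47.4% of all loci were). The part of these markers in the lower integrin and laminin values was not tested.

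The third comparison sets the resveratrol library against control. By the size rule 0 members were higher and 2 lower (9.09%), where 3.60% of loci were higher and 5.25% lower. These were Lamb3 at -1.38, called in the authors' deposited table (q = 0.000148), and Itga10 at -1.26, not tested there. Neither passed after rescaling to TPM (-0.87 and -0.57) or at a pseudocount of 5 (-0.79 and -0.43). The median of the 22 members was -0.12, against 0.00021 over all loci, and it turned to 0.053 after rescaling to TPM. Again 8 members were above 0 and 14 below, where 50.0% and 49.9% of loci were. At an absolute ratio of 0.5 or more, 1 was higher and 6 lower, where 15.0% and 17.1% of loci were. Of 19 members tested in the authors' deposited table, 9 were called lower and 5 higher, where 34.1% of tested loci were called in each direction.

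Lama2 had the highest ratio of the third comparison, 0.51 (q = 0.00321 in the authors' deposited table), followed by Lamc1 at 0.30, Lama4 at 0.28, Itgb3 at 0.23 and Itga2b at 0.19. Itgb8 at -0.94, Itga4 at -0.84, Itga3 at -0.74 and Itga5 at -0.65 were the next lowest after these. Itga3 had nearly the same level in both conditioned media libraries, so its difference from control was of the same size with and without resveratrol. Itga7 (-0.036) and Itga6 (-0.082) were not called and turned sign after rescaling to TPM. This comparison shares the control library with the first and the resveratrol library with the second.

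Promoter sequences from the RefSeq promoter table (GRCm38.p6, the assembly behind mm10) are shown for Lamb3, Itga10 and Itga4, which had among the lowest ratios with resveratrol, beside Lama2, the member with the highest ratio over control. They run 5′ to 3′ on the strand of the gene, up to 250 bases before the start site of the entry. Bases annotated as exon in GENCODE are left out. The RefSeq gene span of Lamb3 starts at 193294353, so its window lies inside that span. That of Lama2, on the minus strand, ends at 27617191, so all of its window but the outermost base lies inside too. Itgb8 is left out because its window lies in an annotated exon. Of the members with a mean of 1 FPKM or more, Itga3, Itga5, Itgav, Itga11 and Lama5 were also lowest in the resveratrol library, and their entries are not printed. Capitals mark matches on either strand to CANNTG (the E-box bound by myogenic factors), GGGCGG (the GC box), GGAATG (the MCAT element bound by TEAD factors) or TGANTCA (the AP-1 site).
Lamb3, chr1:193301744-193301992, plus strand: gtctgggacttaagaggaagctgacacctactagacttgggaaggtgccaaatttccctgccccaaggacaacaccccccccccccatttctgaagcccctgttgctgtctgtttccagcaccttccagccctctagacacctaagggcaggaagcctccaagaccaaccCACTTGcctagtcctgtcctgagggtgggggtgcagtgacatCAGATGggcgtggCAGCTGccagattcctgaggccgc
Itga10, chr3:96645367-96645583, plus strand: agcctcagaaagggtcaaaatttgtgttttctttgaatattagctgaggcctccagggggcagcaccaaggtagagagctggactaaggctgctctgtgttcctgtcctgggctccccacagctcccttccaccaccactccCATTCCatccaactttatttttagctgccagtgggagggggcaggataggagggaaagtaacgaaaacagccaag
Itga4, chr2:79255176-79255425, plus strand: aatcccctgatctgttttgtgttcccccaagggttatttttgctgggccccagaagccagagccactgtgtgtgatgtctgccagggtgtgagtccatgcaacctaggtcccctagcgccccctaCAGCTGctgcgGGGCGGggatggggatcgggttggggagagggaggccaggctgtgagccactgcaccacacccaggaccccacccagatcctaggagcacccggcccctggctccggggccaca
Lama2, chr10:27616943-27617192, minus strand: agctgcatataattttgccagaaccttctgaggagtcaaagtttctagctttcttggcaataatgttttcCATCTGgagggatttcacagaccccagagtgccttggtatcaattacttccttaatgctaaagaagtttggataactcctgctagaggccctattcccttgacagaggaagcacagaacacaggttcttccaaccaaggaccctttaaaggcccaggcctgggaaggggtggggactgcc

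The Lamb3 window shown holds 3 E-box matches, of which the last reads CAGCTG, and no GC box, while a second Lamb3 entry, not printed, holds 1 E-box and 1 MCAT match. The Itga10 window holds 1 MCAT match and no E-box, that of Itga4 1 E-box and 1 GC box, and that of Lama2 1 E-box. An AP-1 match was found in 0 of the 24 windows of 21 members in the table. Over those 24 windows, 20 held an E-box match, 8 a GC box and 3 an MCAT match. Of 32817 windows of 250 bases in the whole table, 66.2% held an E-box match, 32.7% a GC box, 12.6% an MCAT match and 6.75% an AP-1 match. Motif lengths differ and none of these matches overlaps another in the windows shown. The members without an entry were Itga6, Itga7, Itgb2, Itgb3, Itgb4, Lama1, Lama3, Lama4, Lamc1 and Lamc3.

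Genes of adhesion proteins that work downstream of integrins lay mostly below 0 with resveratrol. Of 36 listed focal adhesion genes, 33 had a mean of 1 FPKM or more. In conditioned media over control 25 of these were below 0 (51.3% of all loci were), none of them by the size rule, and the median was -0.17, which turned to 0.017 after rescaling to TPM. Actn1, an actin crosslinker of adhesions, was at 111.9, 62.3 and 64.0 FPKM and Flna, filamin A, which links beta subunit tails to actin, at 274, 161 and 76.2 FPKM. With resveratrol over conditioned media 24 were below 0 (47.4% of all loci were), 3 were lower and 1 higher by the size rule (4.97% and 1.53% of all loci), and the median was -0.40 (-0.38 after rescaling to TPM). Tns3 and Tns2, tensins that bind beta subunit tails, stood at 53.6, 37.6 and 14.7 FPKM and at 26.3, 30.1 and 14.3 FPKM. Flna was the other lower gene. The higher one was Itgb1bp2, melusin, a muscle protein that binds the Itgb1 tail, at 35.2, 26.3 and 61.9 FPKM. Over control, 29 of 33 were below 0 with resveratrol (49.9% of all loci were) and 5 were lower by the size rule (Flna, Tns3, Tns1, Zyx and Ilk), where 5.25% of loci were. After rescaling to TPM, 3 were.

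Of 21 listed basement membrane partners of laminin, 15 had a mean of 1 FPKM or more, 12 of them above 0 in conditioned media over control (48.7% of all loci were) and 14 below 0 with resveratrol over conditioned media (47.4% of all loci were). The first median was 0.098, but 0.28 after rescaling to TPM and 0.0081 (9 above 0) after rescaling over loci longer than 200 bases. The second was -0.34, and -0.32 and -0.39 under those scalings. The nidogens and collagen IV join or stabilise the laminin sheet. Nid1 stood at 61.7, 66.2 and 64.6 FPKM and Col4a1 at 67.0, 71.8 and 70.5 FPKM. Other collagen IV chains differed more with resveratrol over conditioned media, with a log2 ratio of -0.35 for Col4a2 (50.1, 50.4 and 39.4 FPKM) and of -0.63 for Col4a5 (8.14, 8.28 and 5.01 FPKM). Smoc2, a secreted calcium-binding matrix protein, was the only one past the size rule with resveratrol over conditioned media, at 20.4, 15.3 and 5.71 FPKM. The largest ratios for conditioned media over control were those of the fibulins Fbln1 (23.7, 34.7 and 39.9 FPKM) and Fbln2 (161, 215 and 145 FPKM), at 0.53 and 0.41. With resveratrol over control Smoc2 and Pxdn, a peroxidase that crosslinks collagen IV (55.6, 42.3 and 24.7 FPKM), passed the size rule, both lower, and 1 of them did after rescaling to TPM.

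Of 11 other laminin receptors and their partners, 0 passed the size rule in the first 2 comparisons. In conditioned media over control 9 were above 0 (48.7% of all loci were), with a median of 0.19. That median was 0.38 after rescaling to TPM and 0.10 after rescaling over loci longer than 200 bases. With resveratrol over conditioned media 7 were below 0 (47.4% of all loci were), with a median of -0.076. Dag1, dystroglycan, was 1 of the 2 below 0 in the first comparison (-0.45). It stood at 113, 83.1 and 115 FPKM, lowest in conditioned media. Sdc4, a heparan sulphate co-receptor of adhesions, stood at 80.6, 117 and 174 FPKM, lowest in control and highest with resveratrol. It was the 1 gene of this list past the size rule over control (1.10), where 3.60% of all loci were higher. None of this list passed it after rescaling over loci longer than 200 bases. Sdc3, another syndecan, had the largest ratio for conditioned media over control (0.54), at 41.8, 61.1 and 57.1 FPKM. Cd151, a tetraspanin that associates with laminin-binding integrins, stood at 62.8, 74.7 and 48.7 FPKM.

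Integrin ligands other than laminin differed in both directions. Of 16 with a mean of 1 FPKM or more, 2 were higher by the size rule in conditioned media over control, Icam1, the ligand of leukocyte integrins (0.131, 4.10 and 0.631 FPKM), and Tgfbi (1.98, 12.2 and 5.50 FPKM). Over all loci 1.98% were. Icam1 passed the limit on the mean only through conditioned media, where it was highest, so its place in these counts is no support for a difference. With resveratrol over conditioned media 2 were higher and 3 lower, where 1.53% and 4.97% of loci were, and after rescaling to TPM 1 was lower. Spp1, osteopontin, was at 1468, 1528 and 3097 FPKM and Ctgf at 87.3, 53.7 and 121 FPKM, while Icam1, Tgfbi and Emilin1 (11.7, 21.4 and 7.22 FPKM) were lower. Fn1, fibronectin, the ligand of the receptor with Itga5, stood at 1449, 1610 and 1414 FPKM. With resveratrol over control 2 passed the size rule as higher, Tgfbi (1.13) and Spp1 (1.08), and 2 as lower, where 3.60% and 5.25% of loci did. The lower ones were Tnc and Thbs1, matrix ligands of Itgav receptors, at 155, 115 and 58.1 FPKM and at 721, 448 and 268 FPKM.

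**Figure D3:**
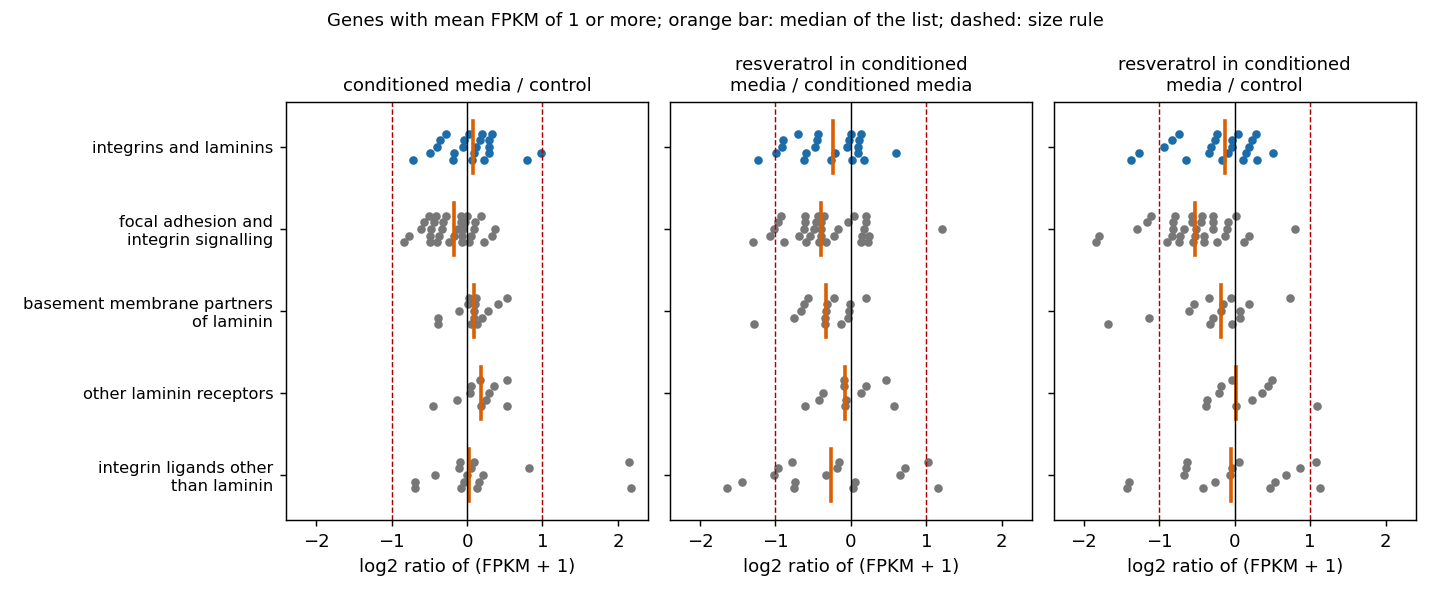
Log2 ratios of FPKM + 1 for the integrins and laminins and for 4 lists of adhesion genes, 1 point per gene with a mean of 1 FPKM or more, in the 3 comparisons. Orange bars are medians and dashed lines the size rule, and with resveratrol over conditioned media the medians of the members, the focal adhesion list and the basement membrane list are -0.24, -0.40 and -0.34.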

How the data were processed

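RNA of 3 C2C12 libraries was analysed from 1 deposited table of gene differences, whose columns are those Cuffdiff writes. Per the submitters' processing notes, the build is mm10 and the tools are Cuffdiff 2.2.1.3, Cufflinks 2.2.1.0, Bowtie, TopHat2 2.1.0, Trim Galore 0.4.3.1 and FastQC 0.69. The gene annotation and strand setting used, and how libraries were scaled, were not given in the sources used here. FPKM were computed by the authors, as were the deposited log2 fold changes (without a pseudocount), the test statistic (a score, not used here), and the p-values and q-values, with calls at 0.05. Columns were assigned by the library numbers in the labels' descriptions. Starts in the table were raised by 1 to be 1-based, which equals the RefSeq start for 14 of 31 members, against 1 without this.

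Ratios were computed as log2((FPKM + 1)/(FPKM + 1)) with pandas 2.3.3, the size rule was applied to loci with a mean of 1 FPKM or more, and its code was tested on simulated data. With 1 library per condition no test of its own was made. Of 31 members, 21 are alone in their span, and the other 10 may share reads with neighbours. Since strand is unknown, so may genes with an antisense partner. Being alone refers to the loci of the deposited table, and Itga10, counted as alone, overlaps Gm42957 in the annotation. Rescaling to TPM follows loci of 200 bases or less, which hold 83.0%, 79.3% and 78.4% of summed FPKM, and moved the median of all loci to 0.14 in both comparisons with control. Rescaling over symbol-bearing loci longer than 200 bases moved it to -0.094, -0.028 and -0.13.

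The members and the lists of adhesion and marker genes were chosen with earlier results of these data known. Some genes of these sets are not reported here and enter no count or figure of them, and every other member is accounted for. Of other lists, up to 4 genes per comparison past the size rule are named by absolute ratio, or the top 2 where none passes. Further genes named from these lists (Ilk, Nid1, Col4a1, Col4a2, Col4a5, Dag1, Fn1, Pdgfra, Dcn, Col6a3, Pdgfrb) were chosen after their values were seen. The alternative limit of 0.5 was also chosen after seeing the data.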

Additional observations from a re-analysis of the deposited data

How the results depend on the processing

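Counts of members past the size rule followed the treatment of low genes. At a pseudocount of 0.1, 2 members were higher in conditioned media over control (Itga2b at 1.20 and Lama4 at 1.09), and 4 were lower in each comparison with resveratrol. At a pseudocount of 5, and after rescaling to TPM, 0 were lower in both. At a mean of 5 FPKM or more, which leaves 16 members, 0 were lower over conditioned media and 1 over control. With ratios rescaled over loci longer than 200 bases or centred on all loci, 2 were lower over conditioned media (Itgb8 and Lamb3). Among members alone in their span (15), 1 was lower over control (Itga10, which overlaps Gm42957 in the annotation). With the limit of 0.5, 2 were higher and 1 lower in conditioned media over control, 1 higher and 7 lower with resveratrol over conditioned media, and 1 higher and 6 lower over control.

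The median log2 ratios, in the order of the 3 comparisons, were 0.10, -0.24 and -0.13 at a pseudocount of 0.1, and 0.056, -0.21 and -0.10 at 5. They were 0.028, -0.093 and -0.048 with no filter on the mean (31 members) and 0.061, -0.043 and -0.061 at a mean of 5 FPKM or more. After rescaling to TPM they were 0.23, -0.22 and 0.053, the last with its sign reversed, and after rescaling over loci longer than 200 bases 0.011, -0.29 and -0.27. Centring on all loci gave 0.096, -0.26 and -0.13. Members alone in their span gave 0.12, -0.056 and -0.039. With resveratrol over conditioned media, 14 of 22 members were below 0 as deposited and after TPM, and 16 under the other 2 scalings. Summing the loci of a symbol changed no value, since each member had 1 locus, and the shares of subunit classes were the same under it. No paired analysis was possible because each condition has 1 library. Depth is unknown and limits the members near 1 FPKM.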

Other observations

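The collagen receptor genes Itga1 and Itga2, 26039 bases apart on chromosome 13, both had a mean below 1 FPKM.

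The integrin genes that the symbol rule leaves out were near 0. The leukocyte subunits Itgal, Itgam, Itgax, Itgad and Itgae did not exceed 0.134 FPKM in any library, and Itgbl1, a secreted protein that resembles beta subunits, stood at 0.573, 0.452 and 0.0778 FPKM.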
